A study of Mus musculus with 4 samples.

Results

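Kcnip2, St8sia6, Cpne7, Pou6f1, Cd7 and Lppr1 are 6 genes, of 11312 tested, whose transcripts were present in resting natural killer T (NKT) cells and scarce after stimulation through the T cell receptor. They were chosen by name and by that same difference in this count table, so their fold changes are given as descriptions and carry no test. The tetramer group was 2 libraries of NKT cells given plate-bound tetramers of mouse CD1d loaded with the lipid PBS57, and the resting group was 2 libraries of NKT cells kept unstimulated. Both groups came from C57BL/6 mice aged 10 to 12 weeks that carried the Va14 T cell receptor transgene and 1 Cxcr6 allele bearing GFP (Va14 Tg.cxcr6gfp/+), and cells were taken by their high GFP signal. The labels name liver as the tissue, while the protocols mention livers or spleens for the sort and islets for the RNA. Both groups therefore carry the same receptor transgene, and 1 copy of Cxcr6 is replaced in both. No source used here gives the length of the culture. Libraries are called 4 and 5 after their column names, since these numbers are not those of the sample titles.

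NKT cells are T lymphocytes with a semi-invariant receptor for lipids held by CD1d, and they are kept in a primed resting state from which receptor signals start cytokine release within a short time. In T cells, activation is known to lower many transcripts of the resting state while those for growth and effector function rise. Several of the 6 genes are better known from other tissues. Kcnip2 encodes a calcium-binding subunit of voltage-gated potassium channels of the Kcnd group, known best from heart muscle. St8sia6 encodes a sialyltransferase that adds sialic acid to sialic acid already on a glycan, and in the mouse its products are bound by the inhibitory lectin Siglec-E. Cpne7 encodes a copine, a protein that binds phospholipid membranes in the presence of calcium. Pou6f1 encodes a POU-domain transcription factor described mainly in the nervous system. Cd7 encodes an immunoglobulin-superfamily protein of the surface of T and NK cells, whose human ligand is SECTM1. Lppr1, now named Plppr1, encodes a membrane protein related to lipid phosphatases that promotes outgrowths of the plasma membrane in neurons.

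RefSeq promoter windows, 250 bases before to 50 bases after an annotated start in build GRCm38.p6, were held for 4 of the 6 genes and are shown as the start regions of transcripts chosen for a shared fall. The files were made on mm9, so the coordinates are those of the RefSeq table alone. Each is written 5′ to 3′ on the gene's strand, and capitals mark any match to 1 of 16 motifs searched on both strands. They lie at chr19:45816014-45816313 (minus strand) for Kcnip2, chr2:13793471-13793770 (minus) for St8sia6, chr15:100599935-100600234 (minus) for Pou6f1 and chr4:49059212-49059511 (plus) for Lppr1.
Kcnip2: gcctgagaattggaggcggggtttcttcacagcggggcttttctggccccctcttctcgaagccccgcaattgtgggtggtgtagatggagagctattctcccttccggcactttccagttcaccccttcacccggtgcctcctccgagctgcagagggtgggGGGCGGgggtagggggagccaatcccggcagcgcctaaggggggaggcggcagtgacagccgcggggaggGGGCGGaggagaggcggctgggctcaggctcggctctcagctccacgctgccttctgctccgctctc
St8sia6: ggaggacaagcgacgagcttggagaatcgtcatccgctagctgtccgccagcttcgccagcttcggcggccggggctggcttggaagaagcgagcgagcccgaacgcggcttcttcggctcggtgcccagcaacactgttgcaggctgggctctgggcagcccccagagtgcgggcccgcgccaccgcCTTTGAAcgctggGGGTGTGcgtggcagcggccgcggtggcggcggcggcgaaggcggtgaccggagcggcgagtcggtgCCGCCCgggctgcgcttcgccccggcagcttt
Pou6f1: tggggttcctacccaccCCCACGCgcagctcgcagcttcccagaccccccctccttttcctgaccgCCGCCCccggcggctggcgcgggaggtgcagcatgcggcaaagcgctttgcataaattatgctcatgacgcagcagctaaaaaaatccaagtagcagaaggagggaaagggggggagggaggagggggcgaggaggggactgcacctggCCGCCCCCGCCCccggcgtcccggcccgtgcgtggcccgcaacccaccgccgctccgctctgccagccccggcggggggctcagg
Lppr1: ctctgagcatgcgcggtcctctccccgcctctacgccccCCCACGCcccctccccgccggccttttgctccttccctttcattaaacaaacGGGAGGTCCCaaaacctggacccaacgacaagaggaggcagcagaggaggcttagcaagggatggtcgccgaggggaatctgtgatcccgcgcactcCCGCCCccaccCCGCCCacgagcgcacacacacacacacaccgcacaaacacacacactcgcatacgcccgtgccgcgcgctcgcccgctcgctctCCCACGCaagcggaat

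The 4 windows had 67.0% GC and 18 CpG pairs for Kcnip2, 72.0% and 39 for St8sia6, 70.3% and 26 for Pou6f1, and 65.7% and 29 for Lppr1. The median over 11369 promoters of tested genes was 60.3% GC and 20 CpG pairs, and 58.3% of those promoters held at least 18, so Kcnip2 lay below and the other 3 above the median in CpG pairs. The GC box GGGCGG was in 4 of 4 windows, against 61.1% of promoters of tested genes and 35.7% of all 32851 promoters of this length. The EGR letters GCGTGGG were in the windows of Pou6f1 and Lppr1, against 8.07% of promoters of tested genes and 5.04% of all. St8sia6 alone of the 4 held the KLF letters GGGTGTG (8.27% of promoters of tested genes, 7.95% of all) and the TCF letters CTTTGAA (3.86% and 5.14%). Lppr1 alone held the NF-kB pattern, GGGA then any 4 bases then CC, found in 25.5% of promoters of tested genes and 20.7% of all. In Pou6f1 2 of the GC boxes lay end to end. None of the 4 windows held the letters searched for FOXO (GTAAACA, 2.69% of promoters of tested genes and 3.65% of all), AP-1 (TGANTCA, 5.20% and 7.81%) or NFAT (TGGAAAA, 4.89% and 6.73%). Those for ETS (CCGGAAGT, 8.51% and 3.89%), RUNX (TGTGGTT, 3.85% and 5.27%), T-box factors (AGGTGTGA, 0.818% and 1.28%) and the POU octamer (ATGCAAAT, 1.32% and 1.74%) were likewise in none. The same held for the Myc E-box (CACGTG, 10.0% and 7.15%), the E-protein E-box (CAGCTG, 15.1% and 16.3%), the CRE (TGACGTCA, 3.14% and 1.79%) and the TATA box (TATAAA, 7.45% and 13.6%). These are matches of letters in a window, not sites of binding.

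Library totals were 5495521 and 5398551 counts in tetramer libraries 4 and 5, and 4168438 and 4433048 in resting libraries 4 and 5. Pearson's r of log2 CPM (counts per 1000000 counts of the scaled library) across genes, which are not independent, was 0.956 within the tetramer pair, 0.926 within the resting pair, and 0.787 to 0.838 between groups. Of 14 markers of NKT and T cells 11 were tested, of which 1 rose, 2 fell and 8 did not pass, among them Zbtb16, Il2rb, Lck and the Cd3 chains. The NK receptor gene Klrb1c fell by 4.13 ± 0.52 (SE) on the log2 scale (edgeR adjusted p = 2.91e-06), at 2.86 and 13.6 CPM in tetramer libraries 4 and 5, against 114 and 174 CPM in resting libraries 4 and 5. Without tetramer library 4 its log2 fold change was -3.39, and without tetramer library 5 it was -5.63. Cxcr6, whose GFP allele was used for the sort, fell by 1.26 ± 0.40 (adjusted p = 0.0190), a call lost without tetramer library 4 (0.346) or resting library 4 (0.111). Zap70, a kinase of T cell receptor signalling, rose by 1.33 ± 0.37 (0.00928), a call lost without tetramer library 4 (0.137) or resting library 4 (0.0605). Markers of other cells were found too. The 7 islet hormone and islet genes tested, of 9 listed, summed to 238 and 430.0 CPM in tetramer libraries 4 and 5, against 269 and 987 CPM in resting libraries 4 and 5, and these 7 did not pass edgeR's test. The 5 erythroid genes tested, of 6 listed, summed to 35.8 and 80.7 CPM against 146 and 410 CPM in the same order, and all 5 were called lower. Markers of monocytes and macrophages (3 tested of 12) summed to 8.39 and 10.1 CPM in the tetramer libraries, against 27.8 and 44.0 CPM in the resting libraries, and those of neutrophils (2 of 8) to 1.84 and 3.24 CPM against 19.5 and 17.9 CPM. Those of B cells (5 of 8) summed to 28.9 and 32.0 CPM against 48.3 and 72.0 CPM. Those of hepatocytes (3 of 12) summed to 45.2 and 28.3 CPM against 50.3 and 52.4 CPM. Not every list was lower in both tetramer libraries. Markers of dendritic cells (5 of 8) summed to 116 and 297 CPM against 274.5 and 291 CPM, with 2 called higher and 0 lower. NK cell markers (4 of 8) summed to 144 and 353 CPM against 102 and 83.3 CPM, with 1 called higher and 1 lower. Gzma alone made up 117 and 303 CPM of the NK cell sums in tetramer libraries 4 and 5. The table holds only genes with at least 1 count in every library, and the hepatocyte gene Alb and the NK cell gene Ncr1 have no row. In bulk RNA, fewer cells of a type and less RNA per cell cannot be told apart. The part of these other cells in the results below was not tested except where values are given.

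In the deposited counts the 6 genes together had 77 reads in the tetramer libraries and 2062 in the resting libraries. Each was lower in both tetramer libraries than in both resting libraries, a pattern that 33.7% of all genes shared. All 6 were among the genes that edgeR called lower (quasi-likelihood F test, adjusted p under 0.05), as were 12.1% of tested genes. Over all genes 1366 were called lower, a count of 313 without tetramer library 4 and 673 without tetramer library 5. This contrast chose them, so nothing is read from either count. The rule gives no numeric threshold. By log2 fold change of tetramer over resting, the 6 held places 1, 3, 5, 11, 12 and 13 from the bottom. The places between belonged to Oog2, Sspn, Pik3ip1, Ptprk, Tbx6, Bmp2 and Qpct. In all, 13 genes (0.115%) had a log2 fold change at or below that of Cd7. The next after Cd7 was Csgalnact1 at -4.40 ± 0.77 (SE).

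Of the gene for an ion channel subunit, Kcnip2, tetramer libraries 4 and 5 held 2 and 4 reads, against 114 and 147 reads in resting libraries 4 and 5. On the scale of CPM with TMM library scaling this was 0.609 ± 0.283 in tetramer cells and 27.5 ± 5.51 in resting cells (SD, n = 2 each), a log2 fold change of -5.44 ± 0.70 (SE). The groups did not overlap, and both tetramer libraries lay near the level of a few reads. Scaled tetramer counts were 2.22% of resting counts, with a 95% exact interval of 0.808 to 4.90% that covers counting error only, as do all such intervals here.

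For the sialyltransferase gene St8sia6 the counts were 6 and 4 in tetramer libraries 4 and 5, against 238 and 75 in resting libraries 4 and 5. The level was 1.02 ± 0.296 CPM in tetramer cells and 32.7 ± 23.5 CPM in resting cells (SD, n = 2 each), with a log2 fold change of -4.97 ± 0.69 (SE) and 3.09% of the scaled counts left (interval 1.47 to 5.76%). The resting libraries differed from each other and lay apart from both tetramer libraries. Without resting library 4 the log2 fold change was -3.93, a fold that differs by more than 1.5 times, and without resting library 5 it was -5.54.

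The membrane-binding copine gene Cpne7 had 4 and 8 reads in tetramer libraries 4 and 5, against 141 and 135 in resting libraries 4 and 5. Its level was 1.22 ± 0.566 CPM in tetramer cells and 29.0 ± 0.257 CPM in resting cells (SD, n = 2 each), a log2 fold change of -4.54 ± 0.63 (SE). The resting libraries were nearly equal, and the tetramer libraries held 4.20% of the scaled counts (interval 2.15 to 7.46%). Cpne7 overlaps a read-through gene model, Gm20388, on the same strand in GENCODE M21, which has no row in the table, so reads of the 2 models cannot be told apart.

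Pou6f1, the transcription factor gene, had 6 and 21 reads in tetramer libraries 4 and 5, against 308 and 303 in resting libraries 4 and 5. This was 2.74 ± 2.14 CPM in tetramer cells and 64.3 ± 0.665 CPM in resting cells (SD, n = 2 each), a log2 fold change of -4.54 ± 0.55 (SE) with 4.27% of the scaled counts left (interval 2.79 to 6.28%). The resting pair was again level, while tetramer library 5 held more than tetramer library 4. Without tetramer library 5 the log2 fold change was -5.67, and without tetramer library 4 it was -3.89.

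The surface protein gene Cd7 had 6 and 13 reads in tetramer libraries 4 and 5, against 231 and 179 in resting libraries 4 and 5. Its level was 1.93 ± 0.991 CPM in tetramer cells and 43.1 ± 6.79 CPM in resting cells (SD, n = 2 each), a log2 fold change of -4.46 ± 0.58 (SE) with 4.48% of the scaled counts left (interval 2.67 to 7.09%). Without tetramer library 5 the log2 fold change was -5.10. As with Pou6f1, the tetramer libraries differed more, as a ratio, than the resting libraries. For Cd7, however, the ratio of tetramer library 4 to 5, 0.467 (interval 0.146 to 1.32), is not separated from equality by the counts. In GENCODE M21, antisense gene models without a row in the table overlap Cd7 (Gm11775), Pou6f1 (Gm27209) and St8sia6 (Gm37126), and since strand use in the counting is not given, reads of such partners cannot be told apart from those of the genes.

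Lppr1, the lipid phosphatase relative, had 2 and 1 reads in tetramer libraries 4 and 5, against 32 and 159 in resting libraries 4 and 5. This was 0.306 ± 0.146 CPM in tetramer cells and 20.3 ± 19.3 CPM in resting cells (SD, n = 2 each), so the SD in resting cells was close to the mean. The scaled ratio of tetramer to resting counts was 0.0152 (95% interval 0.0031 to 0.0451). Its fitted log2 fold change of -5.94 ± 0.91 (SE) was -4.31 without resting library 5 and -6.67 without resting library 4.

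**Figure D1:**
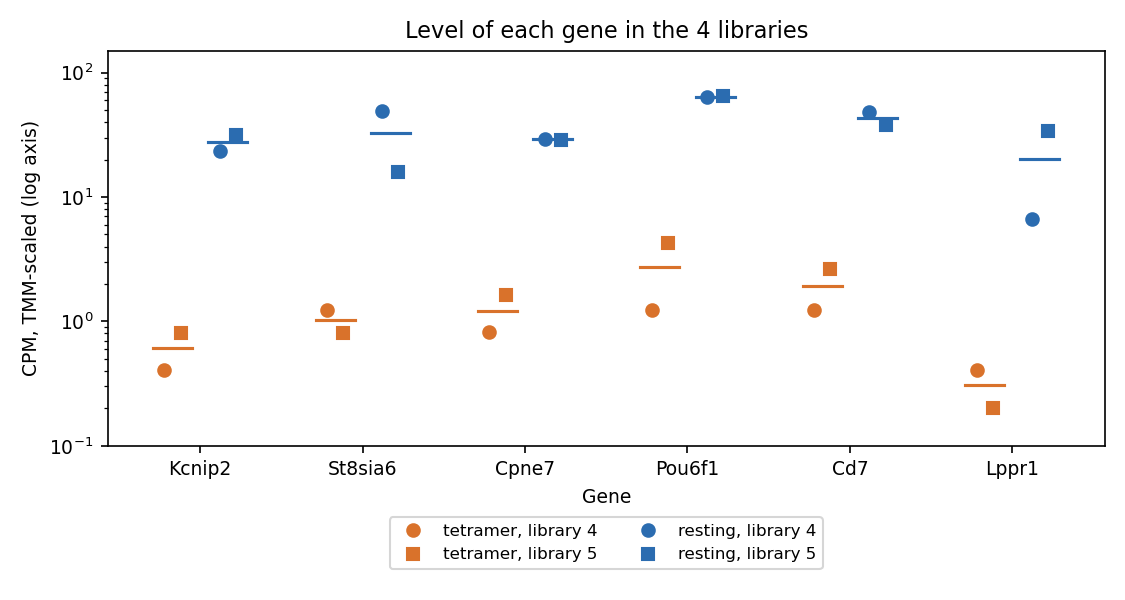
CPM of each of the 6 genes in tetramer libraries 4 and 5 (orange) and resting libraries 4 and 5 (blue) on a log axis, with circles for library 4, squares for library 5 and bars for the means of 2. The tetramer values run from 0.202 to 4.25 CPM and the resting values from 6.63 to 64.7 CPM, and the resting squares and circles stand apart for St8sia6 and Lppr1.

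**Figure D2:**
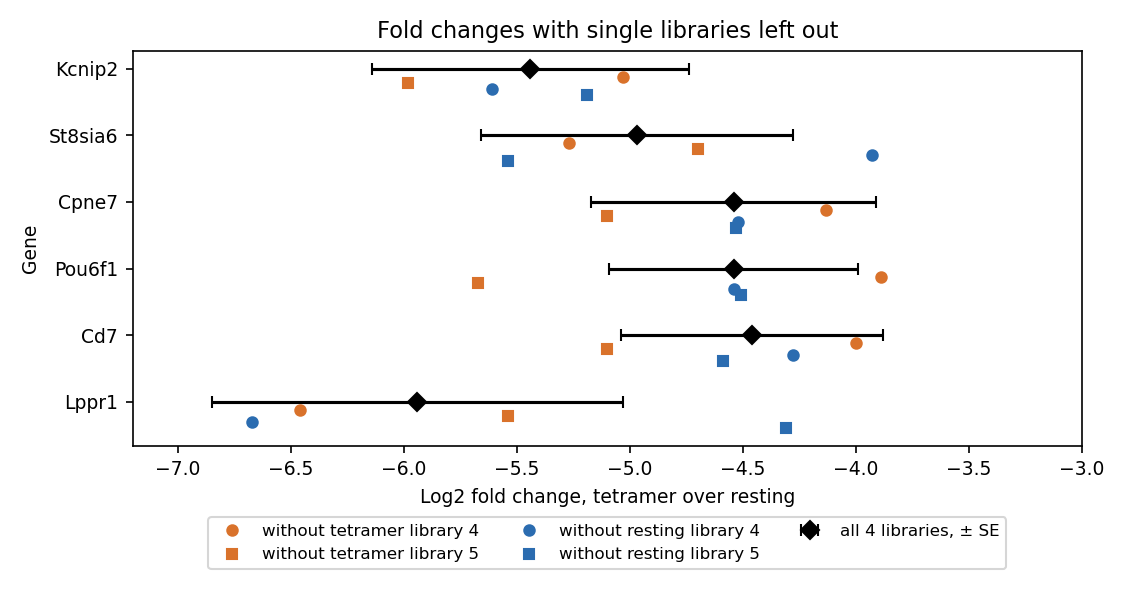
Log2 fold change of tetramer over resting cells for each gene, with all 4 libraries (black, bar ± SE) and with 1 library left out (orange for a tetramer and blue for a resting library). Leaving out a resting library shifts St8sia6 (to -3.93) and Lppr1 (to -4.31) most, and leaving out tetramer library 5 shifts Pou6f1 (to -5.67).

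The rule asked for expression in both resting libraries and a strong fall in both tetramer libraries. It thus drew on the value of each library, so differences within a group are not independent of the choice. Within the groups the 6 did not behave alike, and the shares of like genes given here are descriptions. Between resting libraries Cpne7 and Pou6f1 differed by a fold of 1.01 each, and of the 200 genes nearest to them in resting level 1.5% and 0.5% differed less. Kcnip2 and Cd7 differed by folds of 1.33 and 1.25, with 42.5% and 41.5% of like genes differing less. St8sia6 was 3.08-fold higher in resting library 4 than in resting library 5 (95% exact interval of counting 2.36 to 4.05), a wider difference than in 98.0% of like genes. Lppr1 went the other way, with a ratio of resting library 4 to 5 of 0.195 (interval 0.129 to 0.287), a wider difference than in all 200 like genes. Between tetramer libraries Kcnip2, Cpne7, Pou6f1 and Cd7 were lower in library 4, at a ratio of library 4 to 5 of 0.289 (0.0954 to 0.740) for Pou6f1. For Kcnip2 that ratio was 0.506 (0.0458 to 3.53), for Cpne7 0.506 (0.111 to 1.89) and for Cd7 0.467 (0.146 to 1.32), none of which the counts separate from equality. St8sia6 and Lppr1 were lower in tetramer library 5, on 4 and 1 reads there.

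Likeness was measured among genes of at least 5 CPM on average. It was the root mean square difference of log2 CPM over the 4 libraries, after each gene's own mean was taken away. The measure includes the fall from resting to tetramer cells that chose the 6, so it favours other genes that fell far. Among the 6 themselves it was smallest between Cpne7 and Cd7, at 0.126, and largest between St8sia6 and Lppr1, at 1.38. With the 6 left out as candidates, the chemokine receptor gene Cxcr4 was the nearest to Cd7 (0.044), to Cpne7 (0.110) and to Kcnip2 (0.377), with 22 and 45 reads in tetramer libraries 4 and 5 and 672 and 557 in resting libraries 4 and 5. For Pou6f1 it was Dtx4 (0.156), a gene of the Deltex group of ubiquitin ligases, followed by Pik3ip1 (0.204), an inhibitor of PI3 kinase, and Cxcr4 (0.264). Dtx4 was also the third for Cd7 (0.262), Cpne7 (0.271) and Kcnip2 (0.426). Also with the 6 left out, second place went to Il7r, the interleukin 7 receptor gene, for Cd7 (0.213), to Ypel3 for Cpne7 (0.258) and to Pik3ip1 for Kcnip2 (0.421).

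St8sia6 and Lppr1 had other neighbours in pattern. The nearest to St8sia6 were Qpct (0.256), Tbx6 (0.438) and Fbxo27 (0.458). Qpct, which encodes glutaminyl cyclase, had 5 and 2 reads in tetramer libraries 4 and 5 and 126 and 47 in resting libraries 4 and 5. Those nearest to Lppr1 were Oog2 (0.138), Sspn (0.563) and Bmp2 (0.645). Oog2, of an oocyte gene family with close copies that may share reads, had 2 and 1 reads in tetramer libraries 4 and 5 and 25 and 141 in resting libraries 4 and 5. Sspn, which encodes sarcospan, had 1 and 1 reads in tetramer libraries 4 and 5 and 10 and 83 in resting libraries 4 and 5. All of these genes share the same 4 libraries, and the likeness is a description over 4 values that include the choosing contrast. Pearson correlation in its place shared 0 of the 18 nearest genes.

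Islet and erythroid transcripts differed between the resting libraries in the same direction as Lppr1. The 7 islet genes tested were higher in resting library 5 than in resting library 4, by 2.36-fold (Sst) to 5.26-fold (the glucagon gene Gcg). The insulin gene Ins2 was 3.67-fold higher there, and Lppr1 was 5.13-fold higher. Only 2 of 10 neuronal markers were tested, the synaptic gene Snap25 and Map2, and these differed between the resting libraries in opposite directions. Snap25 was at 2.46 and 2.83 CPM in tetramer libraries 4 and 5, against 5.39 and 19.2 CPM in resting libraries 4 and 5. Map2 was at 2.46 and 2.23 CPM in tetramer libraries 4 and 5, against 2.90 and 1.07 CPM in resting libraries 4 and 5. Summed islet genes stood at 238 and 430.0 CPM in tetramer libraries 4 and 5, against 269 and 987 CPM in resting libraries 4 and 5, where Lppr1 had 2 and 1 reads against 32 and 159. Summed erythroid genes, all 5 called lower, stood at 35.8 and 80.7 CPM in tetramer libraries 4 and 5, against 146 and 410 CPM in resting libraries 4 and 5. The part of islet, erythroid or other RNA in the level of Lppr1 was not tested.

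**Figure D3:**
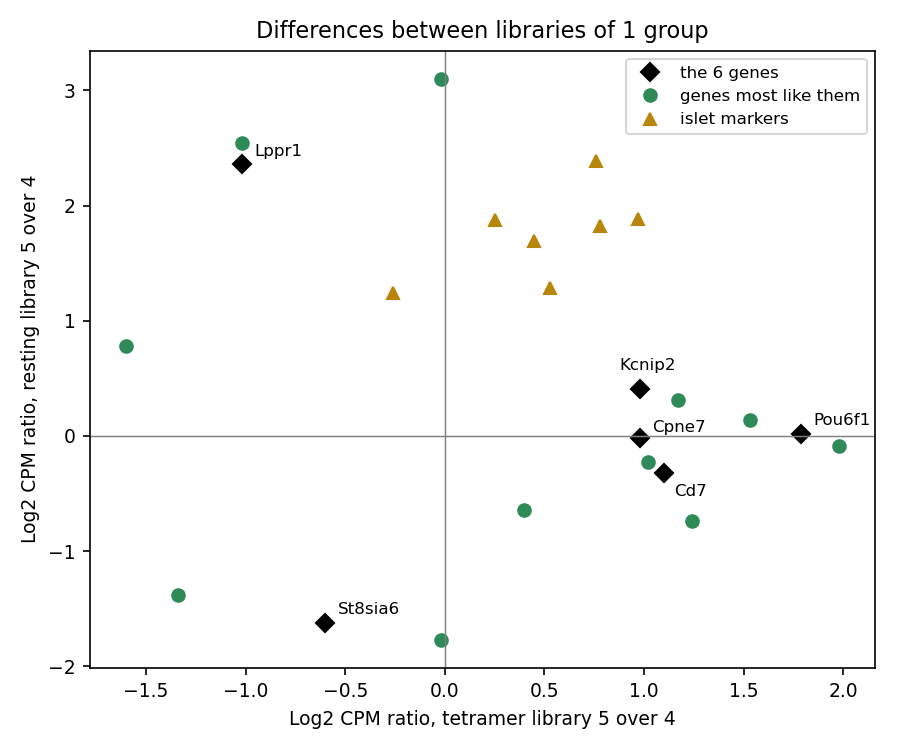
Log2 ratio of CPM in library 5 over library 4 within the tetramer pair (x axis) and within the resting pair (y axis) for the 6 genes (black), the genes nearest to them in pattern (green) and 7 islet markers (brown). Kcnip2, Cpne7, Pou6f1 and Cd7 lie close to 0 on the y axis, at -0.32 to 0.41, while St8sia6 lies at -1.62 and Lppr1 at 2.36, and the islet markers lie at 1.24 to 2.39.

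To see whether relatives moved too, 8 lists of relatives and partners were counted, without the 6 genes themselves. Over all tested genes 14.3% were called higher and 12.1% lower, with a median log2 fold change of -0.06. Of 10 neuronal calcium sensors and related EF-hand genes, the group of Kcnip2, 2 rose, 3 fell and 5 did not pass (median -0.40). The genes that fell were Ncald (log2 fold change -2.38 ± 0.63 (SE), edgeR adjusted p = 0.00702), Chp1 (-1.41 ± 0.38, adjusted p = 0.00719) and Kcnip3 (-1.95 ± 0.60, adjusted p = 0.0172). Kcnip3, the closest named relative of Kcnip2 tested, was at 3.27 and 4.86 CPM in tetramer libraries 4 and 5, against 11.8 and 19.7 CPM in resting libraries 4 and 5. The genes that rose were the calmodulin gene Calm3 (1.09 ± 0.36, adjusted p = 0.0270) and Cib1 (1.41 ± 0.49, adjusted p = 0.0333). Each of these 5 calls was lost with at least 1 library left out. That of Ncald was lost without tetramer library 5 (log2 fold change -1.62, adjusted p = 0.157), and its log2 fold change was -4.02 without tetramer library 4. That of Chp1 was lost without tetramer library 4 (0.171) or resting library 4 (0.0633), and that of Kcnip3 without tetramer library 4 (0.238), tetramer library 5 (0.0711) or resting library 5 (0.0743). That of Calm3 was lost whichever 1 library was left out (0.0734 to 0.199), and that of Cib1 without tetramer library 4 (0.436) or resting library 4 (0.0780). With library totals in place of TMM factors the calls of Calm3 (adjusted p = 0.108) and Cib1 (0.0839) were lost too. The count that fell was 1 without tetramer library 4 or tetramer library 5.

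Of 12 tested genes of potassium channels and their subunits 1 rose, 1 fell and 10 did not pass (median -0.63), and no Kcnd gene, the group Kcnip2 binds, was among those tested. The pore gene Kcnj8 fell by 2.65 ± 0.73 on the log2 scale (edgeR adjusted p = 0.00902), a call lost without tetramer library 4 (adjusted p = 0.217) or tetramer library 5 (0.122). The beta subunit gene Kcnab2 rose by 1.22 ± 0.40 (adjusted p = 0.0231), a call lost without tetramer library 4 (0.318) or resting library 4 (0.152), and with library totals in place of TMM factors (0.0731). Kcnn4, the calcium-activated channel of activated lymphocytes, was at 309 and 231 CPM in tetramer libraries 4 and 5 and at 143 and 170 CPM in resting libraries 4 and 5, and did not pass (adjusted p = 0.110). With tetramer library 4 left out 0 genes of the list were called, without tetramer library 5 0 fell, and without resting library 4 5 fell and 0 rose.

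Among 19 tested genes of sialic acid synthesis, transfer and removal, the pathway of St8sia6, 1 rose, 3 fell and 15 did not pass (median -0.34). St8sia4, which builds polysialic acid, fell by 3.08 ± 0.49 on the log2 scale (edgeR adjusted p = 5.55e-05), at 13.3 and 14.0 CPM in tetramer libraries 4 and 5, against 181 and 49.1 CPM in resting libraries 4 and 5. Like St8sia6, it was higher in resting library 4 than in resting library 5, by 3.69-fold, and its log2 fold change was -1.83 without resting library 4 and -3.71 without resting library 5. St6galnac3 fell by 2.33 ± 0.58 (adjusted p = 0.00394, but 0.0547 without tetramer library 5). St3gal6 fell by 1.15 ± 0.41 (adjusted p = 0.0387), a call lost without tetramer library 4 (0.273), tetramer library 5 (0.167) or resting library 4 (0.175). St6galnac4, which caps short O-glycans, rose by 2.53 ± 0.39 (adjusted p = 3.47e-05), at 165 and 171 CPM in tetramer libraries 4 and 5, against 24.9 and 33.3 CPM in resting libraries 4 and 5. The enzymes that make and modify the activated sugar, Cmas and Cmah, did not pass (adjusted p = 0.127 and 0.518). Without tetramer library 5 1 gene of the list fell, and without resting library 5 2 rose.

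Of 5 tested lectins that bind sialic acid 0 were called by edgeR, with 2 lower at an unadjusted p below 0.05, 1 lower by DESeq2, 1 lower without resting library 4 and 0 by limma-voom (median -0.87). Siglece, the lectin for products of St8sia6, was at 1.64 and 2.23 CPM in tetramer libraries 4 and 5 and at 2.49 and 2.78 CPM in resting libraries 4 and 5 (edgeR adjusted p = 0.671). Cd22 was at 13.3 and 16.2 CPM in tetramer libraries 4 and 5 and at 26.9 and 41.7 CPM in resting libraries 4 and 5 (adjusted p = 0.0553). Cd33 had a log2 fold change of -1.20 ± 0.55 (adjusted p = 0.105). Both are also markers of B cells or myeloid cells, whose sums were lower in the tetramer libraries.

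Of 18 tested copines and other C2-domain or annexin genes, the relatives of Cpne7, 3 rose, 2 fell and 13 did not pass (median -0.15). The other 4 copines tested did not pass. Cpne8 was at 400.4 and 730.4 CPM in tetramer libraries 4 and 5 and at 694 and 567 CPM in resting libraries 4 and 5 (edgeR adjusted p = 0.794). Cpne1 had a log2 fold change of -1.67 ± 0.69 (adjusted p = 0.0710), Cpne3 of -0.30 and Cpne9 of -0.44. The synaptotagmin-like gene Sytl3 rose by 2.40 ± 0.41 (adjusted p = 9.57e-05) and Unc13d, needed for granule release by killer cells, rose by 1.99 ± 0.54 (0.00835, but 0.256 without tetramer library 4). Of the other synaptotagmin-like genes, Sytl1 had a log2 fold change of -0.13 (adjusted p = 0.903) and Sytl2 of -1.15 (0.0855). The annexin gene Anxa6 rose by 1.03 ± 0.38 (0.0435), a call lost whichever 1 library was left out (0.0530 to 0.436), with library totals (0.131) and with the replicate block (0.0932). Esyt2, a tether of the endoplasmic reticulum to the plasma membrane, fell by 2.49 ± 0.54 (0.00140), and its log2 fold change was -1.60 without resting library 4. Syt11 fell by 1.06 ± 0.38 (0.0401), a call lost without tetramer library 4 (0.486) or resting library 4 (0.0993). Leaving out tetramer library 4 left 1 gene of the list higher and 1 lower.

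The list drawn for Pou6f1 held POU factors and other homeobox or related factors, and also Obfc1, a telomere protein gene entered by mistake. Of 16 tested 1 rose, 2 fell and 13 did not pass (median 0.06). Pou5f2 fell by 1.85 ± 0.47 on the log2 scale (edgeR adjusted p = 0.00487), at 20.1 and 27.7 CPM in tetramer libraries 4 and 5, against 132 and 40.2 CPM in resting libraries 4 and 5. Its call was lost without tetramer library 4 (adjusted p = 0.0681) or resting library 4 (log2 fold change -0.74, adjusted p = 0.281), and its log2 fold change was -2.44 without resting library 5. Pou2f1, the broadly expressed octamer-binding factor, fell by 1.19 ± 0.44 (0.0444), a call lost without tetramer library 4 (0.375), tetramer library 5 (0.126) or resting library 4 (0.120). Pou2af1, a coactivator of octamer-binding factors, rose by 3.03 ± 0.77 (0.00493), a call lost without tetramer library 4 (0.174), and by 3.98 without resting library 4. Pou2f2 and the chromatin organiser gene Satb1 did not pass (adjusted p = 0.445 and 0.329). Leaving out tetramer library 4 left 0 genes of the list called, leaving out resting library 4 left 0 lower, and leaving out tetramer library 5 left 1 lower.

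Among 23 tested genes of T cell surface glycoproteins and Cd7 ligands, set beside Cd7, 4 rose, 2 fell and 17 did not pass (median 0.16). The activation marker Cd69 rose by 2.55 ± 0.65 on the log2 scale (edgeR adjusted p = 0.00477), or by 1.94 without resting library 4 and 3.71 without resting library 5. Lgals1, encoding galectin-1, rose by 1.91 ± 0.45 (0.00262, but 0.144 without tetramer library 4) and Cd160 by 1.59 ± 0.39 (0.00353). Cd52 rose by 1.37 ± 0.39 (0.0101), a call lost without tetramer library 4 (0.131) or resting library 4 (0.0733). Cd8b1 fell by 1.89 ± 0.48 (0.00494), a call lost without tetramer library 4 (0.122) or resting library 5 (0.0694). Cd96 fell by 1.37 ± 0.40 (0.0121), a call lost without tetramer library 4 (0.312). The receptor component Cd3d was at 653 and 737 CPM in tetramer libraries 4 and 5 and at 295 and 466 CPM in resting libraries 4 and 5 (adjusted p = 0.0853). Leaving out tetramer library 4 left 2 genes of the list higher and 0 lower.

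Of 16 tested lipid phosphatases and genes of lysophospholipid signalling, the relatives of Lppr1, 0 rose by edgeR, DESeq2 or limma-voom (0 also at an unadjusted p below 0.05), 3 fell and 13 did not pass (median -0.44). Lpar6, a receptor for lysophosphatidic acid, fell by 3.59 ± 0.45 on the log2 scale (edgeR adjusted p = 2.17e-06), at 12.5 and 31.8 CPM in tetramer libraries 4 and 5, against 310 and 224 CPM in resting libraries 4 and 5. S1pr1, the receptor through which lymphocytes leave tissues along sphingosine 1-phosphate, fell by 3.50 ± 0.59 (9.44e-05), at 1.43 and 4.05 CPM in tetramer libraries 4 and 5, against 28.8 and 33.8 CPM in resting libraries 4 and 5. Both were called whichever 1 library was left out, with log2 fold changes of -4.41 to -3.05 for Lpar6 and -4.42 to -2.93 for S1pr1, the lowest of each without tetramer library 5. Sgpp1, a phosphatase for sphingosine 1-phosphate, fell by 1.19 ± 0.40 (0.0276), a call lost without tetramer library 4 (0.190), tetramer library 5 (0.177) or resting library 4 (0.130). The lyase gene Sgpl1 did not pass (adjusted p = 0.147). The only other Lppr gene tested, Lppr3, was at 21.9 and 36.0 CPM in tetramer libraries 4 and 5 and at 26.1 and 15.0 CPM in resting libraries 4 and 5 (adjusted p = 0.465). Without resting library 4, 1 gene of the list rose.

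**Figure D4:**
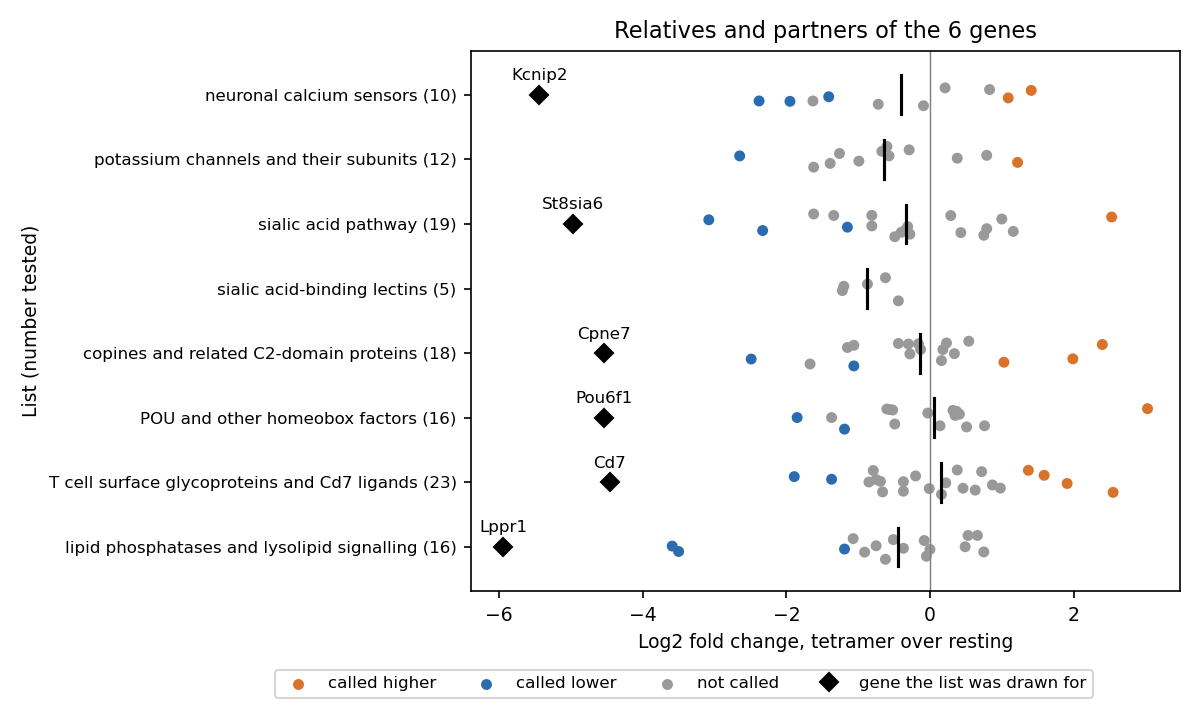
Log2 fold change, tetramer over resting, for all tested genes on the 8 lists, with the number tested in parentheses, orange for genes called higher, blue for genes called lower, grey for the rest and a black bar at each median. Black diamonds are the genes the lists were drawn for, at -5.94 to -4.46, each to the left of every relative on its list, a place fixed by how they were chosen.

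The genes beside each locus were a further readout that the choice did not use. Of the 3 protein-coding genes on each side in the RefSeq order, 36 in all, 19 were tested, of which 2 rose, 3 fell and 14 did not pass, or 10.5% higher and 15.8% lower against 14.3% and 12.1% of all tested genes. With 5 genes on each side 34 were tested, of which 20.6% were higher and 11.8% lower, so this order against all genes turned round. The median log2 fold change was -0.42 with 3 genes on each side and -0.2 with 5, against -0.06 over all genes. Beside Kcnip2 on chromosome 19, Npm3, a nucleolar chaperone gene, rose by 2.19 ± 0.41 (edgeR adjusted p = 3.21e-04), and Ldb1, a cofactor of LIM-domain factors, fell by 1.79 ± 0.55 (0.0174, but 0.192 without tetramer library 5 and 0.259 without resting library 4). The log2 fold change of Ldb1 was -2.39 without tetramer library 4 and -0.90 without resting library 4. The 2 tested neighbours of St8sia6 on chromosome 2, Vim and Stam, and the 4 of Cpne7 on chromosome 8 were not called by edgeR. Beside Pou6f1 on chromosome 15, 1 of 5 fell, Bin2 (-1.74 ± 0.42, adjusted p = 0.00346, but 0.141 without tetramer library 4, and -2.35 without tetramer library 5), while the adjoining Dazap2 and Tfcp2 had log2 fold changes of -0.56 and -0.88 and did not pass.

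On chromosome 11 the genes next to Cd7 on one side were Sectm1b and Sectm1a, relatives of the human ligand gene of CD7, and neither has a row in the table. On the other side Csnk1d, which adjoins Cd7, was at 113 and 193 CPM in tetramer libraries 4 and 5 and at 205 and 203 CPM in resting libraries 4 and 5 (edgeR adjusted p = 0.428). Next along, the lactate transporter gene Slc16a3 rose by 2.85 ± 0.77 on the log2 scale (adjusted p = 0.00735), or by 1.78 without tetramer library 4 (adjusted p = 0.407) and 3.47 without tetramer library 5. Beside Lppr1 on chromosome 4 the only tested gene of 6, Acnat1, fell by 1.49 ± 0.44 (0.0140, but 0.251 without tetramer library 4). With tetramer library 4 left out, 1 neighbour rose and 1 fell.

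**Figure D5:**
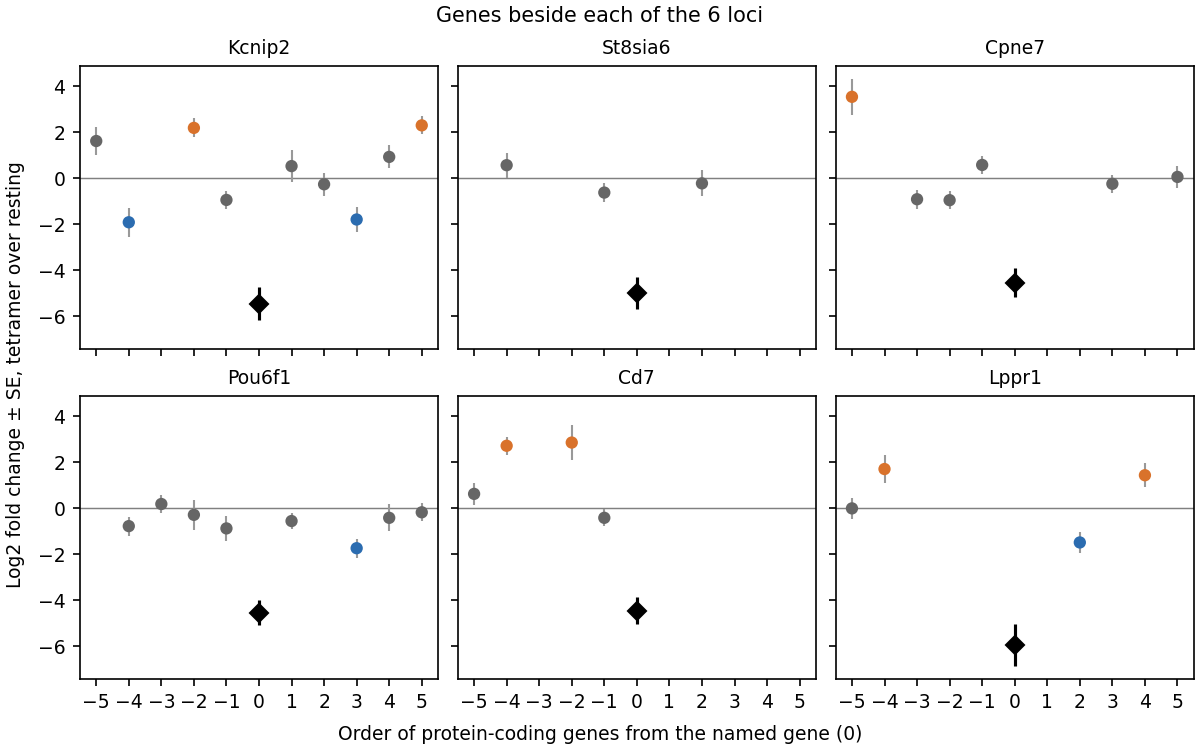
Log2 fold change ± SE (tetramer over resting) of tested protein-coding genes up to 5 places to each side of the 6 loci, by order and not by distance, with orange for genes called higher, blue for lower and grey for the rest. The black diamond at 0 is the named gene, at -5.94 to -4.46. The lowest neighbour within 3 places is Ldb1 at -1.79, and the lowest within 5 is Fbxw4 at -1.91, also beside Kcnip2.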

How the data were processed

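The authors deposited raw read counts, 1 whole number for each gene symbol in each of 4 libraries. Bowtie2, DESeq2 and build mm9 appear, without versions, in the submitters' processing notes. No source used here states the counting method, strand use or handling of shared reads. Per the labels' protocols, libraries were made from polyadenylated RNA by PCR of short cDNA. The table has 12021 genes and no count below 1, so a gene with no read in even 1 library is not analysed here, and Tmem138, with a non-numeric entry, was dropped.

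Counts were fitted with edgeR 4.0.16 in R 4.3.3 (default filter, 11312 genes, TMM factors, quasi-likelihood F test) with Benjamini-Hochberg adjustment over all of them. The common biological coefficient of variation was 0.322. CPM are counts per 1000000 of the TMM-scaled library size, and log2 CPM used a prior count of 2. Column names give the group and a number, so columns were matched to groups only. Whether the 2 libraries of each group come from different mice is not stated, so p-values reflect only how these libraries vary, which may be technical. The counts of the 2 libraries of a group differed by more than sampling noise (chi-square per degree of freedom 28.0 for tetramer and 30.9 for resting). Intervals of ratios of counts are exact (Clopper-Pearson).

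The 6 genes and the lists were chosen with earlier results of these data known. Named genes were the 6 members, up to 3 called genes per direction and the 2 most abundant genes of each list (1 of which is not reported here), called neighbours within 3 places, the 3 genes nearest to each member in pattern and those beside the members in rank. The cell type markers beyond the 2 most abundant of each list were named after their values were seen. So were Siglece, Cpne1, Cpne3, Cpne9, Sytl1, Sytl2, Lppr3, Fbxw4 and the neighbours that were not called. Gene lists were matched through RefSeq symbols and synonyms (GRCm38.p6). Promoters for Cpne7 and Cd7 and protein sequences were not used here. Alternatives were DESeq2 1.42.0, limma-voom (limma 3.58.1), library totals, no filter, a filter of 10 CPM in 2 libraries, a replicate block and leaving out each library. The fit was tested on simulated data.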

Additional observations from a re-analysis of the deposited data

How the results depend on the processing

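The 6 genes stayed lower in tetramer cells under every alternative that gave a value; the filter of 10 CPM in 2 libraries removed Lppr1. With single libraries left out, where a lone library is assumed to vary as the other group's pair, their log2 fold changes ranged from -5.98 to -5.03 (Kcnip2), -5.54 to -3.93 (St8sia6), -5.10 to -4.13 (Cpne7), -5.67 to -3.89 (Pou6f1), -5.10 to -4.00 (Cd7) and -6.67 to -4.31 (Lppr1). Over all genes, 622 to 1629 were higher and 313 to 1488 lower with 1 library left out, against 1620 and 1366 with all 4; the extremes of 622 and 313 were without tetramer library 4.

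With library totals in place of TMM factors, the median gene was at -0.35 in place of -0.06 on the log2 scale, and 1193 genes were higher and 2250 lower. Then 0 calcium sensors and 0 potassium channel genes rose, and those that fell numbered 4 potassium channel genes, 6 sialic acid genes, 2 lectins, 4 copine and C2-domain genes, 6 lysolipid genes and 6 neighbours. With the filter of 10 CPM, 2 sialic acid genes rose, 0 POU and homeobox genes and 1 neighbour rose, and 0 potassium channel genes and 1 lectin fell. With limma-voom 2 sialic acid genes rose, and with DESeq2 1 lectin fell. Taking 5 neighbours on each side, of which 34 were tested, gave 7 higher (20.6%) and 4 lower (11.8%), in place of 2 (10.5%) and 3 (15.8%) of 19, so the order against the 14.3% higher and 12.1% lower of all genes turned round.

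With 1 library left out, counts higher and lower ranged over 0 to 1 and 1 to 3 (calcium sensors), 0 to 1 and 0 to 5 (potassium channels), 1 to 2 and 1 to 4 (sialic acid), 0 to 0 and 0 to 1 (lectins), 1 to 2 and 1 to 3 (copines), 0 to 1 and 0 to 3 (POU and homeobox), 2 to 5 and 0 to 2 (surface glycoproteins), 0 to 1 and 2 to 3 (lysolipids) and 1 to 2 and 1 to 4 (neighbours). Of 144 such fits of 36 called relatives, neighbours and T cell markers, 51 lost the call and 0 changed direction. In 213 fits under other settings 5 lost it. The cause was not tested.

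Whether libraries 4 of both groups share more than a number is not stated. Deviations of library 4 from 5 correlated at 0.0486 across genes between the groups. With 1 pair of libraries in each group, this cannot show whether a mouse or batch was shared. A replicate block on that number gave 1693 genes higher and 1468 lower and 1 lectin lower, and the log2 fold changes of the 6 genes stayed between -5.71 and -4.48. Pearson correlation over 4 libraries shared 0 of 18 nearest genes with the main measure. Counts of 1 to 21 reads in single tetramer libraries limit every ratio of the 6 genes.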
